A study of Mus musculus with 24 samples.

Results

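The adherens junction genes described here are the 8 genes Cdh5, Cdh2, Ctnnb1, Jup, Ctnna1, Ctnnd1, Ptprb and Pecam1, chosen by name and found each as 1 row among the 17270 genes of the deposited table. RNA had been sequenced from microvessels of 24 samples of male C57BL/6J mice aged 10 to 12 weeks, with 3 libraries in each of 8 groups. The paper states that more samples were generated, that outliers were identified and that 3 per group were analysed further. Spreads given here are those of the libraries kept. Mice underwent either transient middle cerebral artery occlusion (tMCAO, a filament stroke model, here 60 min) or sham surgery, in which the filament was pulled back at once, and vessels were isolated 24 h or 7 days later from the ipsilateral (operated side) and the contralateral hemisphere. Each library pooled the hemispheres of 3 mice, and the mice studied at 7 days were those that had survived to that day. Values are normalized counts, that is, reads per gene divided by a size factor of the library, and they summed to between 15924780 and 18787932 per library. All 18 endothelial markers were above 0 in every library and summed to 269052 to 374962 in the ipsilateral libraries, against 421 to 6211 for the 7 neuronal markers. In the same libraries the 6 oligodendrocyte markers summed to 20666 to 75505 and the 5 markers of choroid plexus and ependyma to 657 to 73835. The preparation also held pericytes and other cells of the neurovascular unit, and in such bulk samples fewer cells of a type and less RNA per cell cannot be told apart.

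Adherens junctions join neighbouring cells through cadherins, whose outer parts bind across the cell border and whose inner tails carry catenins that lead to the actin skeleton. In endothelium the cadherin of the junction is VE-cadherin, and its binding to catenins and its phosphorylation bear on how tightly the vessel wall closes. In brain capillaries these junctions stand beside the tight junctions of the blood-brain barrier.

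All 8 genes had a mean above 5 normalized counts and were tested among 15982 genes, and a gene counted as regulated where its Benjamini-Hochberg adjusted p was under 0.05 and its log2 fold change lay beyond 0.585 in either direction. Ptprb was the only one of the 8 that was regulated in any of the 15 comparisons. It was lower in ipsilateral vessels 24 h after tMCAO than after sham surgery, and higher at 7 days than at 24 h. The other 7 genes, VE-cadherin and the catenins among them, passed the call in none of the comparisons. Vessels came from whole hemispheres, which by the paper held infarcted, peri-infarct and partly intact regions, so a difference within a single region was not tested. At 24 h the median log2 fold change of the 8 genes against sham was 0.06, beside -0.02 over all tested genes, and at 7 days it was -0.04 beside 0.03.

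**Figure D1:**
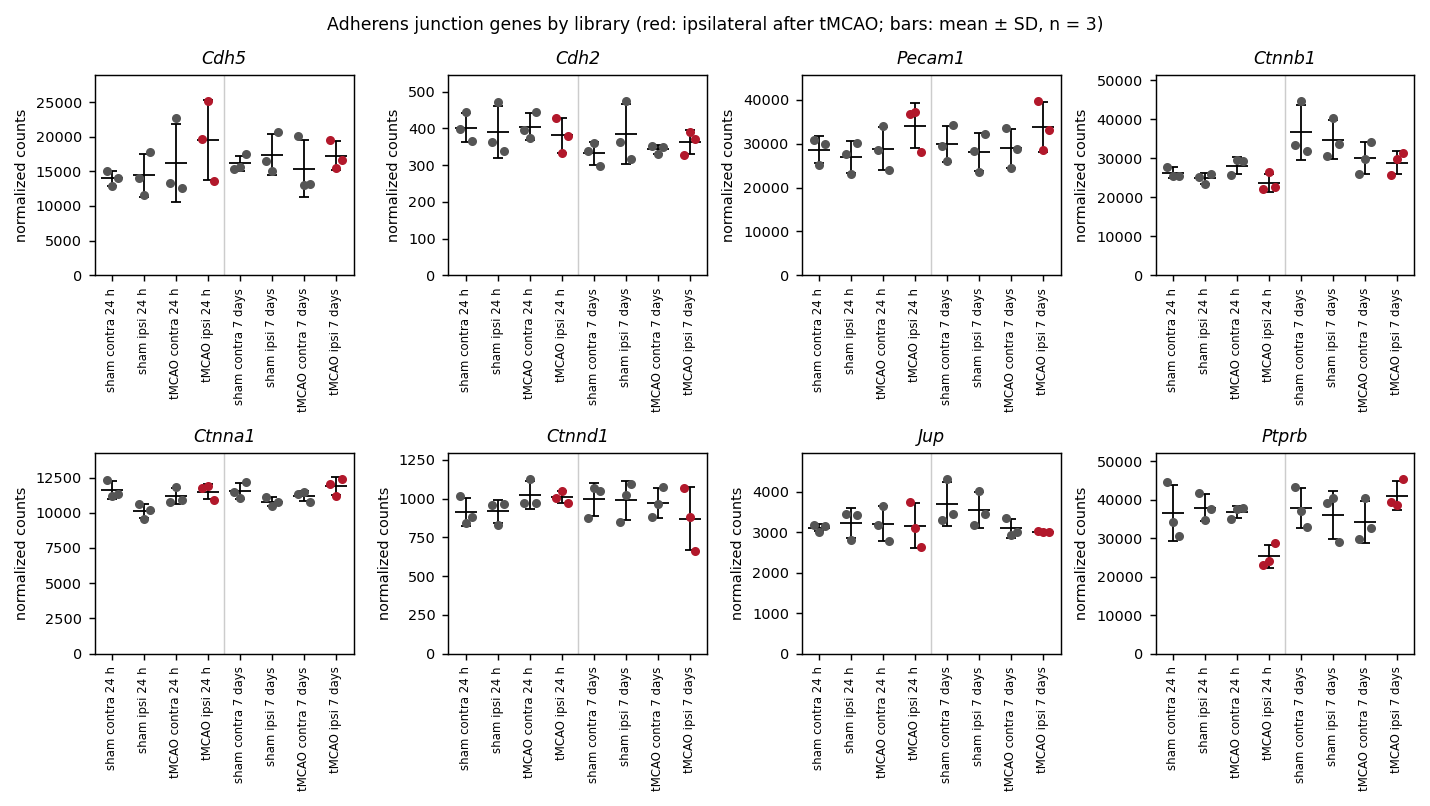
Normalized counts of each gene (y axis, from 0) in the 3 libraries of each of the 8 groups (x axis), with the group mean and SD. In the Ptprb panel the 3 ipsilateral libraries 24 h after tMCAO, between 23125 and 28713, were all below every other library, while in the panels of the other genes the ipsilateral tMCAO libraries overlapped with those of other groups.

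Per kb of exon length, the scale on which levels of different genes can be set side by side, the median over the 24 libraries was highest for Ctnnb1 at 5496 normalized counts per kb. Pecam1 followed with 4689 and was below Ctnnb1 in 19 of the 24 libraries, so these neighbours did not keep their order in every library. Cdh5 came next with 3681, then Ptprb with 2800 and Ctnna1 with 1741. Pecam1 was above Cdh5, and Cdh5 above Ptprb, in all 24 libraries taken one by one, although the ranges of neighbours overlapped across libraries. Ptprb was above Ctnna1 in 22 of the 24 libraries. Below them stood Jup at 494.6, Ctnnd1 at 132.7 and Cdh2 at 45.19 normalized counts per kb, with no overlap of libraries at any of these last steps.

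**Figure D2:**
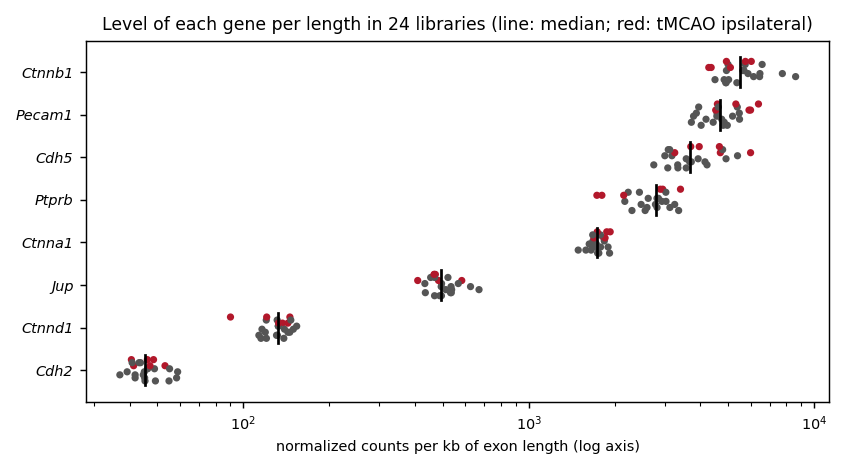
Normalized counts per kb of exon length (x axis, log scale) of the 8 genes in the 24 libraries, with the ipsilateral tMCAO libraries in red and a line at the median. The medians run from 45.19 for Cdh2 to 5496 for Ctnnb1, and the libraries of Ctnna1 lie closest together.

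Cdh5 encodes VE-cadherin, the cadherin that defines the endothelial adherens junction (chromosome 8, 104101625 to 104144511, plus strand, mm10). In ipsilateral vessels 24 h after tMCAO its libraries held 19732, 25185 and 13656 normalized counts, and after sham surgery 13987, 11532 and 17721. The first and second tMCAO libraries were above all 3 sham libraries and the third was below 2 of them, so the groups overlapped. The log2 fold change was 0.42 (SE 0.24, 95% confidence interval -0.08 to 0.91, adjusted p = 0.19 by limma), and it lay between 0.21 and 0.65 when any 1 of the 6 libraries was left out. In the contralateral tMCAO libraries at 24 h the values were 13349, 22668 and 12607, so that the library numbered 2 was the highest on both sides of the brain. Libraries of both sides share a replicate number, but the sources used here do not say that a number marks the same mice. Against the contralateral side the log2 fold change at 24 h was 0.28 (SE 0.24, adjusted p = 0.42).

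At 7 days the ipsilateral tMCAO libraries held 19582, 15542 and 16640 normalized counts of Cdh5 and the sham libraries 16495, 14984 and 20659. These groups overlapped over nearly their whole range, and the log2 fold change was -0.004 (confidence interval -0.50 to 0.49), an interval that stays within the limit of the call on both sides. Cdh5 had the widest spread of the 8 genes, with a coefficient of variation of 21.4% over the 24 libraries. Its highest value was 2.18 times its lowest.

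Cdh2 encodes N-cadherin, which endothelial cells use for contact with pericytes and which neurons and pericytes also express (chromosome 18, minus strand). Its values ran from 298 to 475 over the 24 libraries, and both ends of this range were sham libraries at 7 days. In ipsilateral vessels it held 429, 333 and 380 normalized counts at 24 h after tMCAO, beside 364, 471 and 337 in the sham group. Its log2 fold change there was -0.03 (SE 0.15, interval -0.34 to 0.28, adjusted p = 0.89). At 7 days it was -0.07 (SE 0.15, adjusted p = 0.82). Both signs turned positive, at 0.13, once the values were corrected for exon length and GC content. Pericyte markers, 3 of 8 of which were lower at 24 h against sham, summed to 57240 to 82136 in the tMCAO libraries and 90147 to 114807 in the sham libraries, and their part in the level of Cdh2 was not tested.

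Of the catenins, Ctnnb1 encodes beta-catenin, which binds the cadherin tail and also acts as a transcriptional partner in Wnt signalling. In ipsilateral vessels at 24 h the tMCAO libraries held 22212, 26444 and 22643 normalized counts and the sham libraries 25145, 23354 and 26068. With overlapping groups, the fold change on the log2 scale was -0.07 (SE 0.15, adjusted p = 0.76). At 7 days the values were 25608, 29849 and 31300 after tMCAO and 30481, 40220 and 33562 after sham surgery, a log2 fold change of -0.26 (interval -0.58 to 0.06, adjusted p = 0.27). Contralateral tMCAO vessels at 7 days differed from contralateral sham vessels by -0.285, and the hemispheres of tMCAO mice differed by -0.048, neither past the call. Ctnnb1 differed most not between tMCAO and sham but between sham-operated mice at 7 days and at 24 h.

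In sham-operated mice every library at 7 days was above every library at 24 h in Ctnnb1, on both sides. On the contralateral side the values were 27860, 25476 and 25547 at 24 h and 33475, 44762 and 31891 at 7 days. Between the times the log2 fold change was 0.48 ipsilaterally (SE 0.15, unadjusted p = 0.0055, adjusted p = 0.16 by limma) and 0.47 contralaterally (unadjusted p = 0.0063, adjusted p = 0.23), so neither passed the call. Between the ipsilateral sham groups 22% of all genes had no overlap and 0.476% were regulated, and between the contralateral ones 17.6% and 0.332%. On the ipsilateral side Ctnnb1 was the 1 of 8 without overlap, and contralaterally 4 of 8 had none, with Cdh5 (0.21), Jup (0.24) and Cdh2 (-0.28) beside Ctnnb1. Mice of the 2 time points are separate animals, and whether they were also processed apart is not given in the sources used here.

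Jup encodes plakoglobin, or gamma-catenin, which takes the place of beta-catenin on the cadherin tail and is shared with desmosomes. At 24 h after tMCAO its ipsilateral libraries held 3754, 3112 and 2631 normalized counts, beside 3450, 2798 and 3429 after sham surgery. The tMCAO libraries were both the highest and the lowest of the 6. The tMCAO libraries at 7 days, at 3034, 3004 and 3007, were the tightest group of any of the 8 genes (coefficient of variation 0.5%, n = 3), and all lay below the sham libraries at 3180, 4029 and 3443. This difference was -0.23 on the log2 scale (SE 0.13, interval -0.51 to 0.05, adjusted p = 0.27), and it came to 0.04 after the correction for length and GC content.

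Ctnna1 encodes alpha-catenin, which links beta-catenin and plakoglobin to actin. It was the steadiest of the 8 genes, with a coefficient of variation of 6.2% over the 24 libraries and a highest value only 1.29 times the lowest. Only 1.1% of all tested genes had a smaller SD of the log2 values. In ipsilateral vessels at 24 h the tMCAO libraries held 11762, 11898 and 10876 normalized counts, all above the sham libraries at 10630, 9579 and 10190. A log2 fold change of 0.18 (SE 0.085, interval 0.01 to 0.36) had an unadjusted p = 0.043 and an adjusted p = 0.11 by limma. The tMCAO libraries at 7 days, at 12059, 11165 and 12398, were again all above the sham libraries at 11089, 10467 and 10779, with a log2 fold change of 0.14 (SE 0.085, adjusted p = 0.30). Scaled to endothelial markers, this value at 7 days became -0.10. The same scaling shifts all genes alike, and at 24 h against sham it moved their median by -0.159, beside the 0.18 of Ctnna1.

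The sham ipsilateral side itself stood low in Ctnna1. It was below the same-numbered contralateral library in 3 of 3 pairs at 24 h and 3 of 3 at 7 days, by a mean of 0.20 and 0.10 on the log2 scale (log2 difference -0.20 ± 0.04 and -0.10 ± 0.07, SD, n = 3). The difference at 24 h had an adjusted p of 1 by limma, and with libraries blocked by replicate number no member was regulated between the sham hemispheres either. In tMCAO mice Ctnna1 differed from the contralateral side by 0.04 at 24 h and 0.09 at 7 days, with overlapping libraries.

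Ctnnd1 encodes p120-catenin, which holds cadherins at the cell surface by masking the site of their uptake. Its ipsilateral libraries held 1004, 1049 and 973 normalized counts at 24 h after tMCAO, each just above the sham libraries at 957, 830 and 964. Its log2 fold change was 0.14 (SE 0.14, adjusted p = 0.47) and -0.02 when scaled to endothelial markers. The tMCAO libraries at 7 days fanned out to 1066, 884 and 660, and the last of these was the lowest value of Ctnnd1 in the series. The sham libraries at 7 days held 851, 1020 and 1096, and the log2 fold change was -0.20 (SE 0.14, adjusted p = 0.37).

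Promoter windows of 3 of the catenins are shown with the letter motifs of factors known to act on cadherin genes. RefSeq promoter windows had 300 bases on GRCm38.p6, from 250 bases before to 50 after a transcript start. Windows of 3 of the 8 genes, Ctnnb1, Jup and Ctnnd1, were used. For Cdh5, Pecam1 and Ptprb no window of this length was found under the name of the gene. Those of Cdh2 and Ctnna1 were not read, so 3 need not be the number of genes that have a window. The window of lowest coordinate of each of the 3 is printed 5′ to 3′ on the strand of the gene. A second window was at hand for Ctnnb1 and for Ctnnd1. They were read for AGGAAG and CGGAAG, cores bound by ETS factors such as Erg, for AACAAT, bound by Sox factors, and for CACCTG, the E-box of Snail factors, on both strands. Matches are in capitals. The Ctnnb1 window lies at chr9:120933150-120933449 (plus strand), the Jup window at chr11:100397741-100398040 (minus strand) and the Ctnnd1 window at chr2:84650691-84650990 (minus strand).
Ctnnb1: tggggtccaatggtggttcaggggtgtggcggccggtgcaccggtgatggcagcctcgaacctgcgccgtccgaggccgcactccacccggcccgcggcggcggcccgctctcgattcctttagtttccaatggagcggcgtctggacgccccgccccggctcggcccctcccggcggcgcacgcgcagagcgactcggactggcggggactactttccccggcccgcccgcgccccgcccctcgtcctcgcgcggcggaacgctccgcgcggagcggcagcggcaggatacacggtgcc
Jup: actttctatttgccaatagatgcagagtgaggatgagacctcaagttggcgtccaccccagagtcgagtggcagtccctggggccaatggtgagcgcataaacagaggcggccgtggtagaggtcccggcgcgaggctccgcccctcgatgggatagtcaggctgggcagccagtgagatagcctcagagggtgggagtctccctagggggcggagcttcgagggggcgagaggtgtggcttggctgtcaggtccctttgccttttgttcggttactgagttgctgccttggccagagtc
Ctnnd1: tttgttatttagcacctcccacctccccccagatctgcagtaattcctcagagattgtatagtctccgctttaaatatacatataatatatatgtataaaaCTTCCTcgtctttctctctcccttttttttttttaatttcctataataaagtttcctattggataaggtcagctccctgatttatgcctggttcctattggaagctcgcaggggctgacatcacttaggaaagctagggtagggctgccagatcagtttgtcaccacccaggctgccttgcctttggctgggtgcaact

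The Ctnnb1 window had a GC content of 75.3%, the Jup window 60.7% and the Ctnnd1 window 42.7%. The Ctnnd1 window held 1 AGGAAG on the opposite strand, printed as CTTCCT, and the windows of Ctnnb1 and Jup held none of the 4 motifs. The second Ctnnd1 window, at chr2:84658928-84659227, had a GC content of 67.7% and 2 matches to AGGAAG, again on the opposite strand, and none to the other motifs. Among 32851 windows of the same length AGGAAG was found in 35.4%, CGGAAG in 16.9%, AACAAT in 10.7% and CACCTG in 20.2%. These are matches of letters in a short window and say nothing of binding.

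Ptprb encodes VE-PTP, the endothelial receptor phosphatase that binds VE-cadherin and the receptor Tie2 and removes phosphate groups from them (chromosome 10, 116275550 to 116389535, plus strand, mm10). In ipsilateral vessels 24 h after tMCAO the libraries held 23125, 24076 and 28713 normalized counts, and after sham surgery 41683, 34650 and 37587. All 3 tMCAO libraries were below all 3 sham libraries. The log2 fold change was -0.588 (SE 0.18, interval -0.95 to -0.22, adjusted p = 0.016 by limma), which is 0.67 times the sham level and just past the limit of 0.585. Ptprb was 1 of 8 genes regulated in this comparison, in which 18.3% of all genes were regulated and 8.23% were lower. Of the 8 genes, 3 had no overlap of the groups (Ptprb, Ctnna1 and Ctnnd1), beside 49% over all genes.

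On the contralateral side of tMCAO mice at 24 h Ptprb held 34988, 37564 and 37995 normalized counts. Each ipsilateral library was below the contralateral library of the same number, by 0.60, 0.64 and 0.40 on the log2 scale (log2 differences -0.60, -0.64 and -0.40), and the groups did not overlap, as was so for 1 of the 8 genes and for 40.8% of all genes. Its log2 fold change of -0.55 (SE 0.18, adjusted p = 0.027 by limma) passed the test but not the limit on the fold change, so that 0 of the 8 genes were regulated against the contralateral side, where 13.7% of all genes were and where at an unadjusted p under 0.05 it was 1 of 8 (Ptprb) beside 37.2% of all genes. The sham hemispheres differed by 0.07 in Ptprb. The difference between the hemisphere differences of tMCAO and sham was -0.62 (SE 0.25, adjusted p = 0.13 by limma), where 5.89% of all genes were regulated and 0 of the 8, and where 1 of the 8 (Ptprb) and 24.5% of all genes had an unadjusted p under 0.05. With the replicate number as a block this difference of Ptprb was also -0.62 but had an SE of 0.17 and an adjusted p = 0.025 by limma, which is a call.

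At 7 days the ipsilateral tMCAO libraries held 39330, 38566 and 45401 normalized counts of Ptprb, all above the 24 h libraries, a lack of overlap shared by 34.2% of all genes. The log2 fold change from 24 h to 7 days was 0.70 (SE 0.18, interval 0.34 to 1.07, adjusted p = 0.0085 by limma), a 1.63-fold rise in a comparison in which 12.2% of all genes were regulated and 3.72% were higher. Against sham surgery at 7 days, with libraries at 39080, 40389 and 28969, the groups overlapped and the log2 fold change was 0.20 (SE 0.18, interval -0.17 to 0.56, adjusted p = 0.50). The effect of tMCAO at 7 days minus that at 24 h was 0.79 (SE 0.25, adjusted p = 0.048 by limma), where 8.12% of all genes were regulated. This call was lost in 5 of 9 alternatives and in 10 of 12 omissions of 1 library, with adjusted p between 0.036 and 0.13 over the omissions. In sham-operated mice Ptprb did not pass the call between the time points.

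The call at 24 h was lost after a joint correction for exon length and GC content, whose separate parts were not tested. Ptprb is a long transcript with 13.33 kb of exons, and of the 1444 genes with at least 10 kb of exons 78.1% were lower in this comparison, with a median log2 fold change of -0.28, while the 2765 genes under 2 kb had a median of 0.25. After this correction the log2 fold change of Ptprb was -0.29 (adjusted p = 0.23), which is no longer a call, and the call was also lost without sham replicate 1, tMCAO replicate 1 or tMCAO replicate 2 (log2 fold change -0.68 to -0.52 over the 6 omissions). From 24 h to 7 days the long genes had a median of 0.03, and the rise of Ptprb was 0.79 after that correction and held in 6 of 6 omissions. It fell to 0.50, under the limit, when the libraries were scaled to endothelial markers. Against the contralateral side at 24 h 74.7% of the long genes were lower, with a median of -0.24, beside 0.20 for the genes under 2 kb. In the hemisphere difference of tMCAO minus sham at 24 h 77.1% of the long genes were lower, with medians of -0.266 and 0.225. For the effect of tMCAO at 7 days minus that at 24 h, 37% of the long genes were lower, with medians of 0.161 and -0.172. In ipsilateral sham vessels from 24 h to 7 days 74.4% of the long genes were lower, with medians of -0.143 and 0.128.

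**Figure D3:**
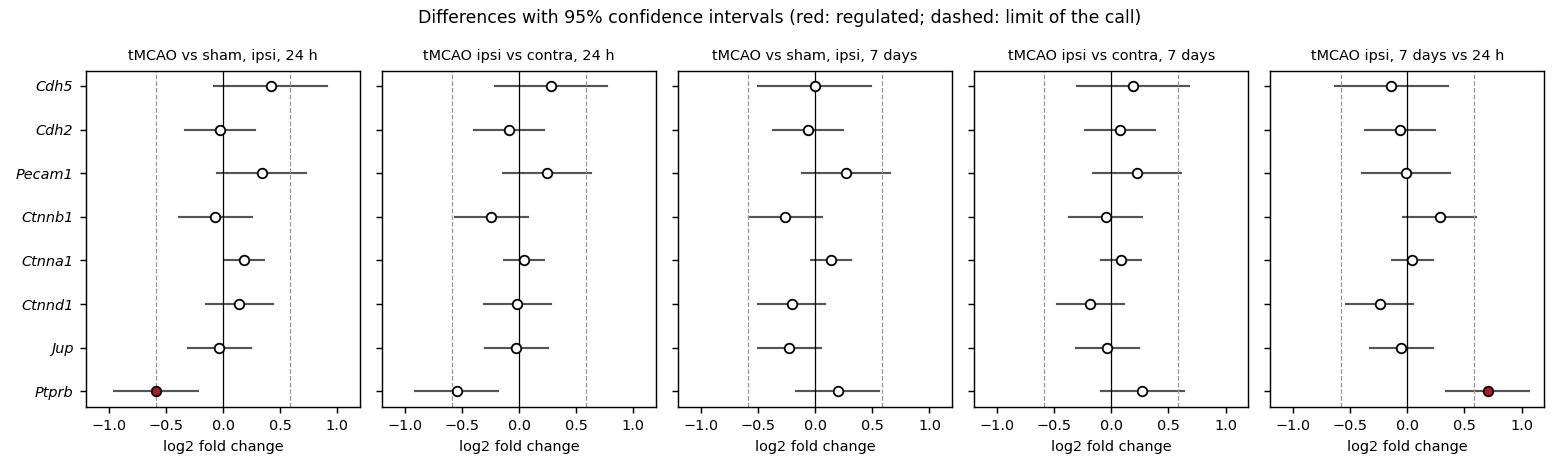
Log2 fold change (x axis) of the 8 genes (y axis) in 5 comparisons of ipsilateral vessels, with 95% confidence intervals, dashed lines at the limit of 0.585 on either side of 0 and regulated genes in red. Ptprb is the only gene in red, at -0.59 against sham at 24 h and at 0.70 from 24 h to 7 days.

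**Figure D4:**
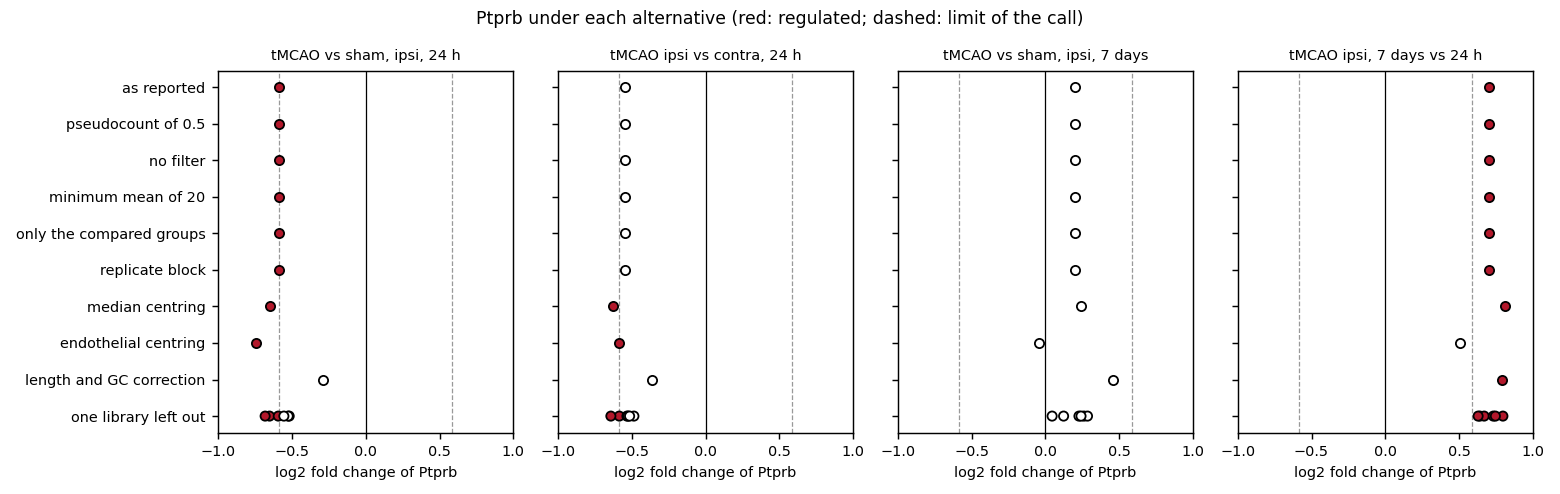
Log2 fold change of Ptprb (x axis) in 4 comparisons as reported and under each alternative processing (y axis), with points in red where Ptprb was regulated and all omissions of 1 library on the lowest line. At 24 h against sham the value moves to -0.29 with the correction for length and GC content, while from 24 h to 7 days only the scaling to endothelial markers, at 0.50, is not in red among the alternatives shown.

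Pecam1 encodes PECAM-1 (CD31), which sits at the lateral border of endothelial cells outside the cadherin complex and is also carried by platelets and leukocytes (chromosome 11, 106654217 to 106750628, minus strand, mm10). At 24 h after tMCAO its ipsilateral libraries held 36887, 37350 and 28195 normalized counts, beside 27627, 23168 and 30198 after sham surgery. The third tMCAO library lay within the sham range and the other two above it. A log2 fold change of 0.34 was found (SE 0.19, interval -0.05 to 0.72, adjusted p = 0.17). At 7 days the values were 39813, 28584 and 33171 after tMCAO and 28455, 23578 and 32308 after sham surgery, with a log2 fold change of 0.27 (SE 0.19, adjusted p = 0.37).

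Between same-numbered hemispheres Pecam1 was higher ipsilaterally in 3 of 3 tMCAO pairs at 24 h (mean log2 difference 0.24 ± 0.12, SD, n = 3) and in 3 of 3 at 7 days (0.22 ± 0.02). In sham-operated mice the pairs at 7 days all went the other way, with -0.09 ± 0.05, and those at 24 h averaged -0.09 ± 0.09. The difference of the hemisphere differences was 0.33 at 24 h (SE 0.26, adjusted p = 0.46) and 0.32 at 7 days (SE 0.26, adjusted p = 0.57), neither past the call. Markers of blood cells also moved at 24 h. Of the 7 listed markers of neutrophils and monocytes 6 were tested and all 6 were higher at 24 h against sham, with sums over the list of 8594 to 12677 normalized counts after tMCAO and 2388 to 4161 after sham surgery, and 2 of 4 platelet markers were higher, with sums of 573 to 727 and 170 to 481. In the hemisphere difference of tMCAO minus sham at 24 h it was 1 of 6 and 0 of 4. Against sham at 7 days 1 of the 6 was higher, with sums of 3395 to 9933 after tMCAO and 2756 to 5350 after sham surgery, and of the platelet markers 0 were higher and 1 was lower, with sums of 274 to 275 and 320 to 649. Of 18 other endothelial markers 3 were higher and 3 lower at 24 h against sham. Their sum was 269052 to 299490 after tMCAO and 308182 to 347912 after sham surgery, whereas their median log2 fold change was 0.22, so that the sum and the median differed in direction. Against sham at 7 days 3 of the 18 endothelial markers were higher and 0 lower, with a median log2 fold change of 0.257. The part of blood cells and of endothelial cells in the level of Pecam1 was not tested.

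Against sham surgery at 7 days, 0 of the 8 genes were regulated by limma and 0 had an unadjusted p under 0.05, while 13.2% of all genes were regulated and 29.3% had such a p. Ctnna1 and Jup, 2 of 8, had no overlap of the groups, against 30% of all genes. The comparison with the contralateral side at 7 days again gave 0 of 8, also at an unadjusted p under 0.05, with 13% and 26.9% of all genes. The same held for the hemisphere difference of tMCAO minus sham at 7 days, with 9.84% and 20.7% of all genes. Within each time point the comparisons with sham and with the contralateral side share their ipsilateral tMCAO libraries. Their values therefore stand side by side and are not separate evidence.

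In the 7 comparisons among the control groups 0 of the 8 genes were regulated by limma. Over all genes, 0% were regulated between the sham hemispheres at 24 h, at 7 days and between the contralateral groups at 24 h, 0.0313% between the contralateral groups at 7 days and 0% between contralateral tMCAO vessels at the 2 times. At an unadjusted p under 0.05 there was 1 of 8 between the sham hemispheres at 24 h (Ctnna1, beside 2.3% of all genes) and 1 of 8 in each sham comparison of the times (Ctnnb1, beside 14.1% ipsilaterally and 10.8% contralaterally). It was 0 of 8 in the other 4, beside 2.25% of all genes between the sham hemispheres at 7 days, 2.53% and 10.3% between the contralateral groups at 24 h and 7 days and 16.5% between contralateral tMCAO vessels at the 2 times. Groups without overlap were found for 1 of 8 between the sham hemispheres at 24 h (Ctnna1, beside 11.5% of all genes) and 1 of 8 between contralateral tMCAO vessels at the 2 times (Cdh2, beside 16%). They were found for 0 of 8 between the sham hemispheres at 7 days and between the contralateral groups at 24 h and 7 days, beside 7%, 8.2% and 9.8%. The largest of the differences among controls, 0.48 for Ctnnb1, was larger in size than the difference of any of the 7 genes other than Ptprb in the comparisons with tMCAO vessels of the ipsilateral side.

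Ratios of 2 genes within a library do not depend on the scaling of that library, but they were not corrected for exon length or GC content. Ptprb has 13.33 kb of exons and Cdh5 4.2 kb. At 24 h against sham the median log2 fold change was -0.282 for genes with at least 10 kb of exons and 0.246 for those under 2 kb. The part of length in these ratios was not tested. The log2 ratio of Ptprb to Cdh5 in ipsilateral vessels at 24 h was 0.23, -0.07 and 1.07 after tMCAO and 1.58, 1.59 and 1.09 after sham surgery. The groups did not overlap, by a narrow margin between 1.07 and 1.09, and the mean was lower by a log2 difference of -1.004 (0.41 ± 0.59 against 1.42 ± 0.29, SD, n = 3, 2-sided exact permutation p = 0.1, the smallest that 3 against 3 libraries can give). Set against contralateral libraries the difference was -0.83 with overlap (exact p = 0.2), and at 7 days it was 0.20 against sham (exact p = 0.6). The log2 ratio of Pecam1 to Cdh5 at 7 days was 0.97 ± 0.08 after tMCAO and 0.70 ± 0.08 after sham surgery, without overlap (exact p = 0.1), but against the contralateral side it differed by 0.03 (exact p = 0.9). The ratios of Cdh2 to Cdh5, Jup to Ctnnb1 and Ctnnd1 to Cdh5 overlapped in each of the 4 comparisons made, with differences between -0.45 and 0.22. No ratio can pass a threshold of 0.05 with 3 libraries a group, and adjusted over the 20 ratio comparisons every p was 1.

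Across the 24 libraries, which share groups and pools, the 8 genes did not vary as 1 unit. Cdh5 and Pecam1 went together most closely (Pearson's r of the log2 values 0.83, and 0.86 after the group means were taken out). Ctnna1 followed Pecam1 with r = 0.67 and Jup followed Ctnnb1 with r = 0.53, while Ptprb and Cdh5 gave r = -0.38. Over all tested genes, the patterns most like Cdh5 were those of Fyn (0.92), Ramp3 (0.92) and Ralb (0.91), and most like Pecam1 those of Card19 (0.90), Capg (0.89) and Ralb (0.88). Ptprb was most like Tshz1 (0.94), Amer1 (0.91) and Btbd7 (0.89), and Ctnnb1 was most like Alpl (0.93), Cmpk2 (0.88) and Hprt (0.87). The closest pattern to Ctnna1 was Dync1i2 (0.84), to Ctnnd1 the predicted gene Gm44067 (0.82) and to Jup Ntng2 (0.69). These values describe the libraries and carry no test.

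Other genes of the pathway were read from 11 lists with 86 genes, of which 85 were tested. Against sham surgery at 24 h, 4 of the 85 were higher and 6 lower, beside 10% higher and 8.23% lower over all genes, with a median log2 fold change of 0.05. These 10 became 3 without tMCAO replicate 1 and 5 without sham replicate 1. Compared with contralateral vessels at 24 h, 7 were higher and 0 lower, beside 8.52% and 5.14%, and in the hemisphere difference of tMCAO minus sham 4 were higher and 0 lower, beside 4.64% and 1.25%. At 7 days against sham 4 were higher and 7 lower, beside 3.27% and 9.95% over all genes, with a median of 0.03. The comparison of hemispheres at 7 days gave 3 higher and 6 lower in tMCAO mice, beside 3.03% and 9.98%, and in the hemisphere difference 4 and 6, beside 1.19% and 8.65%. In both comparisons with sham the actin linkers (9 tested), the receptors and ligands acting on junctions (7) and the sheddases and gamma-secretase (4) had no regulated gene.

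Of the nectins and afadin, a second adhesion system of adherens junctions, Nectin2 was higher at both times. It held 1139, 1136 and 903 normalized counts at 24 h after tMCAO and 612, 753 and 686 after sham surgery (log2 fold change 0.63, SE 0.13, adjusted p = 0.0016), and it differed by 0.84 at 7 days (SE 0.13, adjusted p = 0.00015). The other 4 tested genes of this list did not pass the call. Of the further lateral border molecules Icam2, an adhesion molecule of endothelium and platelets, was higher at 24 h, with 4481, 5154 and 4137 after tMCAO and 2826, 2666 and 2791 after sham surgery (log2 fold change 0.73, SE 0.15).

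Of 6 further catenins and p120 relatives 4 were lower at 24 h against sham, a share of 66.7% beside 8.23% over all genes, led by Ctnna3 at -1.27. Ctnna2 (-1.14), Ctnnd2 (-0.92) and Ctnnal1 (-0.89) were the others, named after their values were seen. Against the contralateral side at 24 h 0 of the 6 were regulated, beside 13.7% of all genes. The log2 fold changes there were -0.65, -0.50, -0.82 and -0.63 for these 4 genes in the same order. In the hemisphere difference of tMCAO minus sham at 24 h it was 0 of 6, beside 5.89% of all genes. At 7 days against sham Ctnnd2 (-1.73) and Ctnna2 (-1.54) were lower, 2 of 6 beside 9.95% of all genes. Ctnna2 and Ctnnd2 are the alpha-catenin and the p120 relative of neurons, and Ctnna2 stood at only 40, 71 and 48 normalized counts at 24 h after tMCAO and at 132, 119 and 96 after sham surgery. Of the 7 neuronal markers 5 were lower at 24 h and 7 at 7 days, with sums of 1542 to 2136 against 4289 to 4548 and of 421 to 789 against 3517 to 6211, and their part in these catenins was not tested.

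Among other cadherins, against sham surgery, Pcdh17 was lower at 24 h (-0.66). At 7 days Cdh13, T-cadherin, was higher (0.75) while Cdh10, a cadherin of neurons, was lower (-1.76). Against the contralateral side at 24 h 1 of the 8 tested was higher and 0 were lower, so Pcdh17 did not pass the call there. Cdh13 at 7 days held 2087, 1798 and 1986 normalized counts ipsilaterally after tMCAO. It held 1416, 1508 and 1882 contralaterally and 1044, 1205 and 1237 in the ipsilateral sham libraries. Of 13 kinases and phosphatases Ptpn6, the phosphatase SHP-1 of blood cells, was higher at 24 h (1.47) and 7 days (0.93), and the kinase Ptk2b was lower at 7 days (-1.13). Of 9 regulators of cadherin transcription Snai1, which encodes the cadherin repressor Snail, was higher at 24 h (0.97) and Twist1 was lower at 7 days (-0.85). Against the contralateral side 1 of the 9 was higher and 0 were lower at 24 h, and 0 were regulated at 7 days. Twist1 held 57, 58 and 62 normalized counts ipsilaterally at 7 days after tMCAO. It held 71, 63 and 89 contralaterally and 133, 87 and 106 in the ipsilateral sham libraries. Of the 4 tested desmosomal partners of plakoglobin Dsg2 was lower at 7 days (-2.12, SE 0.67), at only 2, 1 and 3 normalized counts after tMCAO and 17, 10 and 9 after sham surgery. The tMCAO values are close in size to the 1 that was added before the log.

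**Figure D5:**
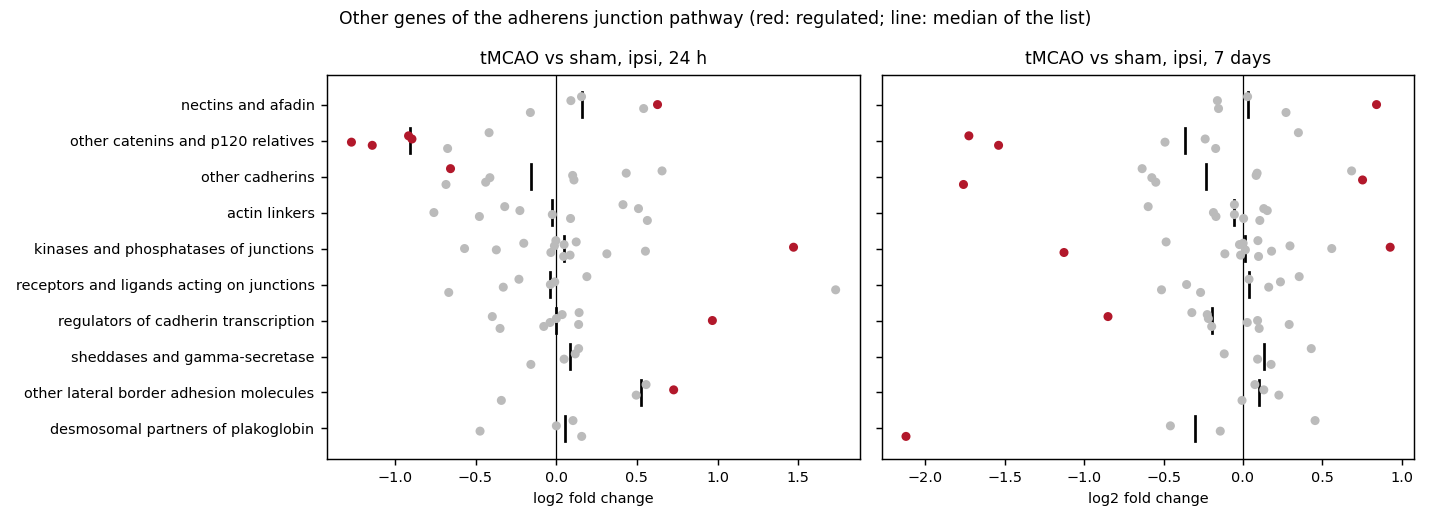
Log2 fold change (x axis) of the 69 tested pathway genes of 10 lists (y axis) in ipsilateral vessels after tMCAO against sham at 24 h and at 7 days, with regulated genes in red and a line at the median of each list. At 24 h 4 genes lie in red on the right and 5 on the left, 4 of these among the further catenins and p120 relatives.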

How the data were processed

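Microvessels of 24 samples had been sequenced with a stranded mRNA kit. The authors aligned reads to mm10 with STAR, counted them with featureCounts 1.5.1 per the labels' processing notes, and deposited gene counts divided by DESeq2 size factors and rounded. The deposited values are therefore a score that the authors made relative to the 24 libraries, not numbers of reads. The notes name STAR 2.5.2b and DESeq2 1.6.2, while the paper's methods name other versions of both. Which versions made the deposited values is not known here. Reads per library were not computed here, so no counting interval is given. Groups came from the labels. Only the 24 columns of values and the annotation of the genes were used.

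Genes with a mean above 5 (15982) were tested on log2 of the value plus 1 by limma 3.58.1 in R 4.3.3, in a single fit of the 8 groups with trended variance, and all of them entered the Benjamini-Hochberg adjustment. Exon lengths and GC contents came from GENCODE, which held 99.9% of the genes. Ratios used 2-sided exact permutation tests in scipy 1.17.1. The code was tested on simulated data. Named genes were all 8 genes, the regulated genes with the largest increase and decrease in each pathway list and the 3 genes of most like pattern. Values of 1 gene of like pattern and the genes of 1 pathway list, which stays in the counts over the 85 genes, are not reported here. The genes and lists were chosen with earlier results of these data known, and the medians of long and short genes were added after seeing the data. Same-numbered hemispheres deviated together in sham-operated mice, with correlations of 0.323, 0.41 and 0.145 at 24 h and 0.325, 0.442 and 0.467 at 7 days, but not all over 0.1 in tMCAO mice. The labels give only a shared number, and the fit with the number as a block is an alternative. Libraries of a group are separate pools of mice per the methods.

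Alternatives were a pseudocount of 0.5, no filter, a minimum mean of 20, median centring, scaling to endothelial markers, a correction for length and GC content, no limit on the fold change, a fit of only the compared groups, the replicate number as a block, and each library left out.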

Additional observations from a re-analysis of the deposited data

Results flagged for a closer look

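The effect of tMCAO on Ptprb differed between the time points by an interaction test. It was 0.785 higher on the log2 scale at 7 days than at 24 h (SE 0.25, limma adjusted p = 0.048), with -0.588 at 24 h and 0.197 at 7 days against sham. In the same test the genes with at least 10 kb of exons had a median of 0.161 and those under 2 kb -0.172. In Ptprb all 3 ipsilateral tMCAO libraries were below all sham libraries at 24 h, whereas the groups overlapped at 7 days. The difference kept its sign in every alternative run, between 0.71 and 0.89, but its call was lost in 5 of 9 of them and in 10 of 12 omissions of 1 library, with adjusted p between 0.036 and 0.13 over the omissions.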

How the results depend on the processing

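Of the 8 genes only Ptprb was regulated as reported, and its counts moved as follows. Against sham at 24 h the 1 gene became 0 once length and GC content were corrected for. The 1 gene from 24 h to 7 days became 0 with endothelial scaling, and the 1 gene of the interaction became 0 with no filter, endothelial scaling, this correction, the replicate block and only the compared groups. Compared with the contralateral side, 0 became 1 at 24 h with median centring, endothelial scaling and no limit on the fold change, and 1 at 7 days with the correction (each time Ptprb). The hemisphere difference gave 1 in place of 0 at 24 h with the replicate block (Ptprb, -0.62, adjusted p = 0.025) and at 7 days with endothelial scaling (Ctnnd1) and with the correction (Ptprb). Without 1 library, the counts were 0 to 1 against sham at 24 h, 0 to 1 for the interaction and 0 to 1 against the contralateral side at 24 h. The pathway genes at 24 h came to 22 in place of 10 without a limit on the fold change, and to 3 to 12 without 1 library, the lowest without tMCAO replicate 1 and then 5 without sham replicate 1. The cause was not tested.

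Signs turned for genes that were not regulated. With median centring, Cdh5 against sham at 7 days was 0.037, and against the contralateral side Ctnna1 at 24 h was -0.039, Ctnnb1 at 7 days 0.0 and Jup at 7 days 0.011. With endothelial scaling, against sham, Ctnnd1 at 24 h was -0.019, and at 7 days Ctnna1 was -0.1 and Ptprb -0.041. Against the contralateral side at 7 days Cdh5 was -0.077, Cdh2 -0.186, Pecam1 -0.043 and Ctnna1 -0.18, and the hemisphere difference of Ptprb was -0.088. With the correction, against sham, Cdh2 was 0.126 at both times, Jup 0.13 at 24 h and 0.035 at 7 days and Cdh5 0.07 at 7 days. Compared with the contralateral side Ctnnd1 was 0.07 at 24 h and 0.021 at 7 days, and at 7 days Ctnnb1 was 0.058 and Jup 0.282. Endothelial scaling moved the median of all genes by -0.159 at 24 h and -0.238 at 7 days against sham, and the correction moved it by 0.117 at 7 days.

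Without 1 library, fold changes against sham ranged from -0.129 to 0.112 for Cdh2 and -0.166 to 0.09 for Jup at 24 h, and from -0.104 to 0.127 for Cdh5 and -0.196 to 0.097 for Cdh2 at 7 days. Against the contralateral side they ranged at 24 h from -0.179 to 0.003 for Cdh2, -0.053 to 0.054 for Ctnnd1 and -0.156 to 0.1 for Jup, and at 7 days from -0.147 to 0.051 for Ctnnb1, -0.343 to 0.002 for Ctnnd1 and -0.078 to 0.023 for Jup. Ratios against sham ranged for Cdh2 to Cdh5 from -0.324 to 0.201 at 7 days, for Jup to Ctnnb1 from -0.145 to 0.125 at 24 h and -0.058 to 0.093 at 7 days, for Ptprb to Cdh5 from -0.082 to 0.389 at 7 days and for Pecam1 to Cdh5 from -0.184 to 0.055 at 24 h. Against the contralateral side they ranged for Cdh2 to Cdh5 from -0.299 to 0.059, for Jup to Ctnnb1 from -0.106 to 0.17, for Ptprb to Cdh5 from -0.221 to 0.315 and for Pecam1 to Cdh5 from -0.063 to 0.135 at 7 days, and for Pecam1 to Cdh5 from -0.176 to 0.101 at 24 h.

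Residuals of same-numbered libraries correlated on average by -0.161 between tMCAO and sham at 24 h and -0.008 at 7 days, so these share only a number. In tMCAO mice the hemispheres correlated by 0.066, 0.36 and 0.327 at 24 h and 0.059, 0.309 and 0.064 at 7 days, not all over 0.1. With the replicate block, Ptprb against sham at 24 h was -0.588 (adjusted p = 0.019) and its interaction 0.785 (adjusted p = 0.055). With 3 libraries a group the SEs of the 8 genes between groups ran from 0.085 to 0.237, and 7 of their 96 confidence intervals left out 0.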
